A study of Mus musculus with 16 samples.

Results

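The ubiquitin-specific proteases (USPs) were followed in BU.MPT cells, a mouse proximal tubular cell line, after hypoxia and reperfusion (H/R) and after addition of vitamin B12. The members were the genes whose symbol on the array's annotation begins with Usp and a digit. The rule gave 55 genes of the 19505 genes with a named probe set, each with 1 probe set. One of the 55, Usp6nl, carries such a symbol but encodes an activator of Rab GTPase hydrolysis and not a protease, which leaves 54 named as proteases. Usp9y, Usp17la, Usp17lb, Usp17lc, Usp17ld and Usp17le have close relatives in the mouse genome, and their probe sets may share signal with them.

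Expression was measured on 16 single-colour arrays, 4 in each of 4 groups. H/R+B12 cells spent 3 h at about 1% oxygen in medium without glucose or serum and then 1 h in normal culture, with B12 added as 0.3 µM cyanocobalamin. H/R cells had the same treatment without B12. Control+B12 cells stayed in 21% oxygen, 10% serum and 4.5 g/L glucose and received the same B12, and control cells stayed there without it. All cells were one line, kept at 39 °C without interferon gamma, so the groups are 1 line and not separate animals. Oxygen, glucose and serum changed together in H/R and cannot be told apart. All treated samples are titled B12, but the description field gives B13, B14 or B15 for replicates 2 to 4. These were taken as B12. Whether replicates came from separate cultures is not stated, and a p-value therefore covers the spread among these samples, which may be technical.

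Ubiquitin is a small protein that ligases attach to other proteins, and chains of it send many of them to the proteasome. USPs are cysteine proteases that cut ubiquitin off again, and they form the largest family of deubiquitinating enzymes. Single members are known for work on histones, on the p53 pathway, on the hypoxia-inducible factor HIF and its ligase VHL, on endosomes and on mitochondria. The array reads their mRNA and not their protein or activity.

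The log2 signal had a median of 5.21 to 5.37 per array over the 22206 tested probe sets. Per-array medians of the 5222 negative control features ran from 5.72 to 6.23. A mean signal below the lowest of these is called dim here, and the size of a change there is uncertain. Of 55 members, 41 were at or above that level over all 16 arrays and 14 were dim. The dim members were Usp2, Usp9y, Usp11, Usp13, the 5 Usp17l genes, Usp26, Usp35, Usp43, Usp50 and Usp51. Of 7 measured proximal tubule markers only the water channel Aqp1 was above it, and 6 were dim, among them the defining receptors Lrp2 and Cubn. Of 5 epithelial markers, 4 were above it (Cdh1, Cldn4, Krt8 and Krt18). All 4 endothelial, all 3 leukocyte and all 4 distal nephron markers were dim, as were 2 of 3 fibroblast markers, and the podocyte gene Nphs1 was not. After H/R the epithelial markers Cldn4 (2.53) and Krt18 (0.82) rose on the log2 scale and Aqp1 fell by 0.80. In H/R+B12 against control+B12 these values were 2.83, 1.43 and -0.87. The other epithelial markers passed in neither comparison, with Cdh1 at 0.17 and 0.06, Krt8 at 0.27 and 0.32, and the dim Epcam at -0.13 and -0.50. The leukocyte gene Ptprc, although dim, was higher by 0.93 in H/R+B12 than in control+B12 (limma adjusted p = 0.0365). The part of these markers in the results was not tested.

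After H/R without B12, 17 of 55 members passed the test, 13 higher and 4 lower. The test was limma's moderated fit across all probe sets, adjusted by Benjamini and Hochberg, with a threshold of 0.05. Over all probe sets 17.6% passed, 8.11% higher and 9.54% lower. Dim probe sets seldom passed, so the closer background is the 10690 probe sets that were not dim, of which 34.3% passed, 15.7% higher and 18.6% lower. Of the 41 members that were not dim 16 passed (39.0%), 12 higher and 4 lower, close to that background in total. The median log2 change was 0.14 over the 55 members and -0.02 over all probe sets. In bulk RNA a change in the share of a kind of cell and a change within cells cannot be told apart. At an unadjusted p under 0.05 there were 21 members, against 27.6% of all probe sets.

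With B12 in both arms, 18 of 55 members passed in H/R+B12 against control+B12, 16 higher and 2 lower, against 18.7% of all probe sets (9.04% higher and 9.61% lower). Of the 41 that were not dim 17 passed (41.5%), 15 higher and 2 lower, against 35.3% of all such probe sets (17.4% higher and 17.9% lower). The median log2 change was 0.15 over the members and -0.04 over all probe sets, and 25 members had an unadjusted p under 0.05, against 29.1% of all probe sets. The H/R and H/R+B12 comparisons share no array. They had 14 called members in common, all 14 in the same direction, and each of the 17 members called without B12 had the same sign with B12. Across the 55 members the 2 sets of log2 changes had Pearson's r = 0.903, as a description across genes that were measured on the same probe sets. The overlap of calls, the shared signs and r are not given here for all probe sets. They therefore do not show whether the family differs from the rest of the array.

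**Figure D1:**
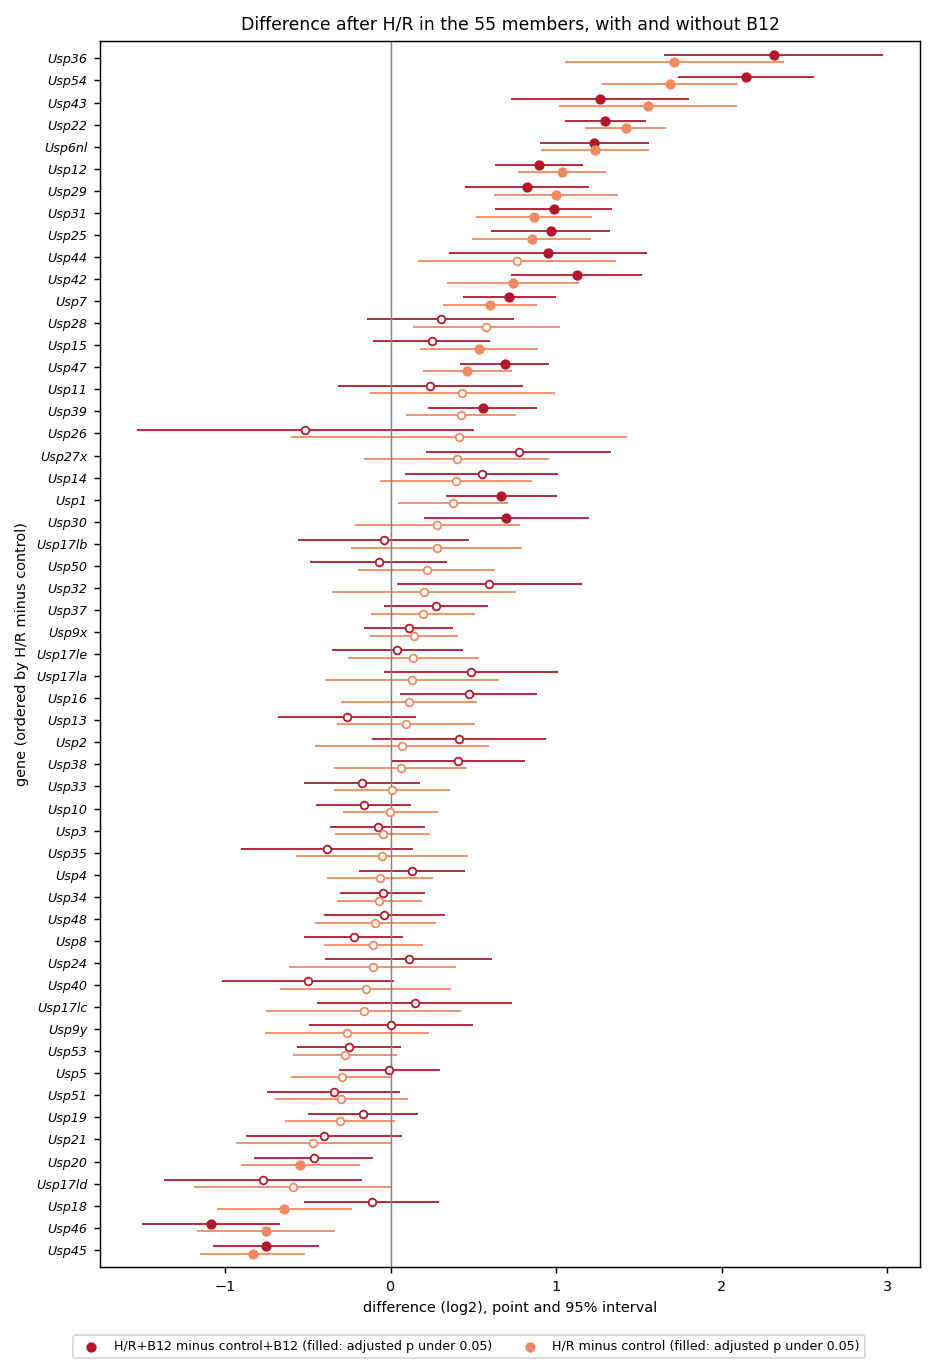
Log2 difference after H/R (x axis, point and 95% interval from limma, n = 4 arrays per group) in each of the 55 members (y axis), for H/R+B12 minus control+B12 in dark red and H/R minus control in orange. Filled points passed the adjusted threshold of 0.05, and Usp36, Usp54, the dim Usp43 and Usp22 stand at the top in both sets.

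The members that act on histones and chromatin had 2 of 9 higher and 0 lower after H/R, and 3 of 9 higher and 0 lower with B12. Over all probe sets 8.11% and 9.04% were higher, and 15.7% and 17.4% of those that were not dim. Usp22, the deubiquitinase subunit of the SAGA coactivator complex, had the smallest p of the family. Its log2 signal was 15.02, 14.80, 15.08 and 15.05 in the 4 H/R arrays, against 13.60, 13.53, 13.60 and 13.54 in the control arrays. With B12 it was 14.82, 14.85, 14.80 and 14.74 in H/R+B12, against 13.68, 13.48, 13.46 and 13.40 in control+B12. The H/R groups lay more than 1 log2 unit above their controls with no overlap. Usp22 rose by 1.42 ± 0.12 (SE, n = 4 against 4, limma adjusted p = 4.69e-07) without B12, a 2.68-fold change, and by 1.30 ± 0.12 (adjusted p = 9.70e-07) with it.

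Usp36, a nucleolar USP, read 9.28, 9.20, 9.73 and 8.91 in H/R arrays, against 8.04, 7.79, 6.73 and 7.70 in control arrays. With B12 it read 9.17, 9.37, 9.33 and 9.82 in H/R+B12, against 7.30, 7.73, 6.19 and 7.21 in control+B12. Replicate 3 was the lowest array in both the control and the control+B12 group, and the groups did not overlap. The increase was 1.71 ± 0.31 (limma adjusted p = 8.83e-04), or 3.28-fold, without B12 and 2.31 ± 0.31 (adjusted p = 6.02e-05) with B12.

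Both relatives of Usp22, which can use the same partner proteins, gave other values. Usp27x changed by 0.40 with a 95% interval of -0.16 to 0.96 after H/R, and by 0.77 (0.21 to 1.33, limma adjusted p = 0.0513) with B12. The value with B12 passed on all arrays with an intensity trend (adjusted p = 0.0387) or without the 25% dimmest probe sets (0.0393). It also passed with quantile normalization (0.0322) or centring (0.0323), and without H/R+B12 replicate 3 (0.97, adjusted p = 0.0193). Usp51, which was dim, was at -0.30 (-0.70 to 0.11) and at -0.34 (-0.75 to 0.06). The interval of Usp22, 1.18 to 1.66, lay above both of the intervals without B12. With B12 its interval of 1.05 to 1.54 overlapped that of Usp27x, and the difference between the genes was not tested. Usp44, which acts in the spindle checkpoint and on histones and was added after its values were seen, was at 0.76 ± 0.28 (limma adjusted p = 0.0778) after H/R and rose by 0.95 ± 0.28 (adjusted p = 0.0258) with B12. The first value passed with an intensity trend (adjusted p = 0.0457), array weights (0.0481) or quantile normalization (0.0387), and without H/R replicate 4 (0.98, adjusted p = 0.0242). The call with B12 was lost without control+B12 replicate 3 (0.0654), control+B12 replicate 4 (0.0517) or H/R+B12 replicate 2 (0.09). Usp3, Usp16, Usp21 and Usp48 did not pass in either comparison, with log2 changes from -0.47 for Usp21 to 0.11 for Usp16 without B12 and from -0.40 for Usp21 to 0.47 for Usp16 with B12.

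**Figure D2:**
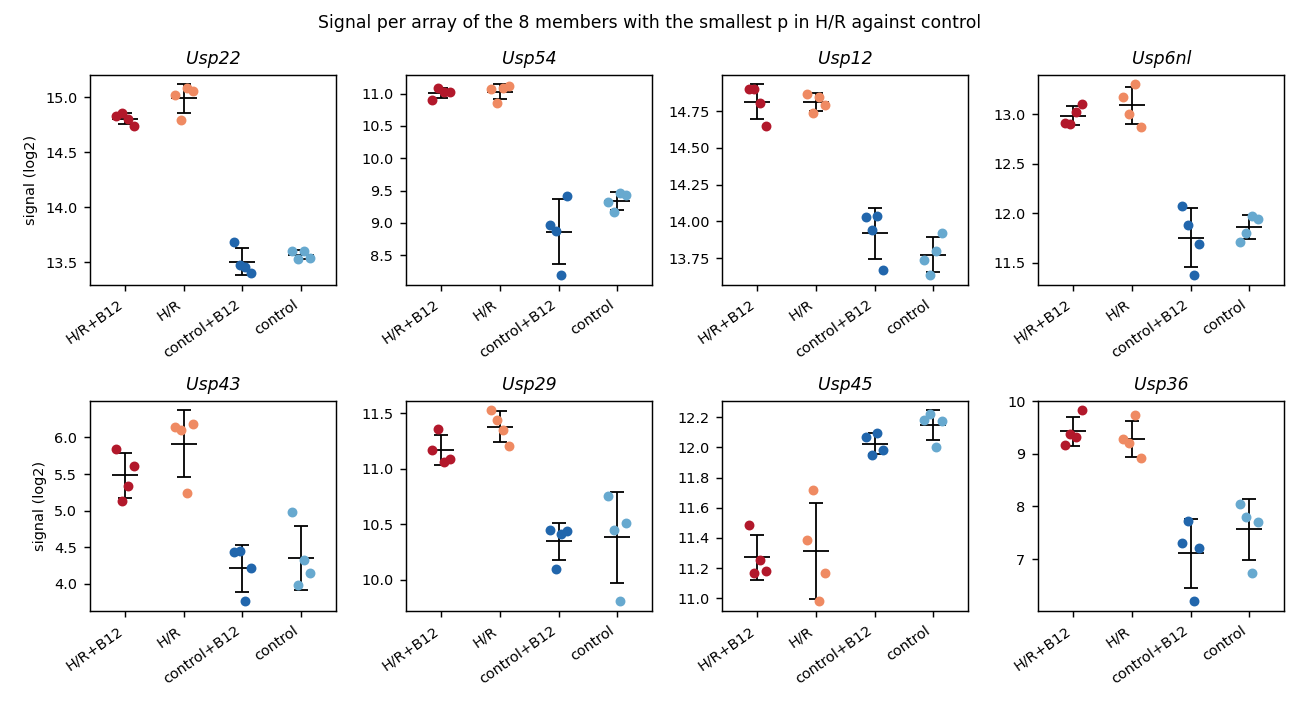
Log2 signal (y axis) on each array in the 4 groups (x axis) for the 8 members with the smallest p in H/R against control. Points are arrays, and the bar and whiskers are the mean and SD of 4 arrays. In all 8 genes the H/R+B12 and H/R arrays lie on one side of the control+B12 and control arrays.

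Of the 3 members long classed as lacking protease activity, a view since questioned for Usp53 and Usp54, 1 rose after H/R and 2 rose with B12. Over all probe sets 8.11% and 9.04% were higher, and 15.7% and 17.4% of those that were not dim. Usp54 had 11.08, 10.86, 11.08 and 11.11 in H/R arrays, against 9.32, 9.16, 9.46 and 9.43 in control arrays. It had 10.90, 11.09, 11.03 and 11.03 in H/R+B12, against 8.97, 8.87, 8.19 and 9.42 in control+B12. The arrays after H/R sat close together in both sets, and the control+B12 arrays were the most spread. Usp54 rose by 1.69 ± 0.19 (limma adjusted p = 1.41e-05), 3.23-fold, and by 2.15 ± 0.19 (adjusted p = 1.08e-06) with B12. Its relative Usp53 did not follow, at -0.27 (95% interval -0.59 to 0.04) and -0.25 (-0.56 to 0.07). Usp39, a spliceosome component that cannot cut ubiquitin, was at 0.43 ± 0.16 (limma adjusted p = 0.074) and rose by 0.56 ± 0.16 (adjusted p = 0.0181) with B12. The groups did not overlap in either comparison. The value without B12 passed with an intensity trend (0.0204), without the 25% dimmest probe sets (0.0482) or with centring (0.0432). The call with B12 was lost without control+B12 replicate 1 (0.0648) or H/R+B12 replicate 2 (0.0572), and when only the 2 groups were fitted (0.0723).

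Among the members with roles in signalling, 4 of 11 rose and 2 fell after H/R, and 3 rose and 1 fell with B12, where 17.6% and 18.7% of all probe sets passed and 34.3% and 35.3% of those that were not dim. Usp12 and Usp46 are close relatives whose products are both activated by Wdr48 and Wdr20, and they moved in opposite directions. Usp12 read 14.87, 14.74, 14.85 and 14.79 in H/R arrays, against 13.74, 13.63, 13.80 and 13.92 in control arrays. In H/R+B12 it read 14.90, 14.90, 14.81 and 14.65, against 14.03, 13.94, 14.04 and 13.67 in control+B12. Usp46 read 8.92, 8.79, 8.44 and 8.59 in H/R arrays, against 9.26, 9.84, 9.41 and 9.23 in control arrays. With B12 it read 8.58, 8.90, 8.66 and 7.94 in H/R+B12, against 9.75, 9.68, 9.44 and 9.58 in control+B12. Neither gene's groups overlapped, in either B12 setting. Usp12 rose by 1.04 ± 0.13 (limma adjusted p = 2.21e-05) and by 0.89 ± 0.13 with B12 (adjusted p = 8.95e-05). Usp46 fell by 0.75 ± 0.20 (adjusted p = 0.0126) and by 1.09 ± 0.20 with B12 (adjusted p = 8.25e-04). The difference between the genes was not tested.

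Usp25, known from cytokine receptor signalling, read 14.40, 14.67, 14.76 and 14.49 in H/R arrays, against 13.75, 13.63, 14.02 and 13.50 in control arrays. Usp25 rose by 0.85 ± 0.17 (limma adjusted p = 1.77e-03) and by 0.97 ± 0.17 with B12 (adjusted p = 6.35e-04). Usp31, reported in human cells to act on NF-kB signalling, read 11.78, 11.84, 11.82 and 11.67 in H/R arrays, against 10.83, 10.65, 11.04 and 11.11 in control arrays. Usp31 rose by 0.87 ± 0.17 (adjusted p = 1.34e-03) and by 0.98 ± 0.17 with B12 (adjusted p = 4.70e-04). In both genes all arrays after H/R lay above all arrays of their control group, with and without B12. Usp15, which acts on TGF-beta receptor signalling, rose by 0.53 ± 0.17 without B12 (adjusted p = 0.0355) and was at 0.25 ± 0.17 (adjusted p = 0.37) with it. The difference between these, the interaction, was -0.29 with a 95% interval of -0.79 to 0.21. The call of Usp15 ended in turn without control replicates 2, 3 or 4 (0.0773, 0.0735 and 0.112) and without H/R replicates 2 or 4 (0.0844 and 0.104). It also ended with the replicate number as a block (0.0638) and when only the 2 groups were fitted (0.0641). Its relative Usp4 was at -0.06 ± 0.15 and 0.13 ± 0.15.

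Usp18 removes the ubiquitin-like protein ISG15 and holds back the interferon receptor. It read 8.77, 9.23, 9.33 and 9.67 in H/R arrays, against 9.82, 9.79, 10.02 and 9.93 in control arrays. It read 9.28, 9.36, 9.44 and 9.24 in H/R+B12, against 9.40, 9.11, 9.30 and 9.97 in control+B12. The H/R arrays lay below the control arrays, and the groups with B12 overlapped. Usp18 fell by 0.64 ± 0.19 without B12 (limma adjusted p = 0.0277) and was at -0.11 ± 0.19 with B12 (adjusted p = 0.764). The call without B12 was lost without control replicates 3 or 4 (0.0735 and 0.0596), without H/R replicates 1 or 2 (0.101 and 0.0596), and with arrays centred on their medians (0.0669). Usp34 and Usp38 did not pass. Usp2, tied to the circadian clock, was dim and at 0.07 and 0.41, and Usp13 was dim too.

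The members of the p53 and DNA damage group had 3 of 8 higher and 1 lower after H/R, and 4 higher and 1 lower with B12, beside the same shares of 17.6% and 18.7% of all probe sets and 34.3% and 35.3% of those that were not dim. Usp7, which stabilises both p53 and its ligase Mdm2, read 14.25, 14.28, 14.63 and 14.31 in H/R arrays, against 13.95, 13.50, 13.85 and 13.76 in control arrays. It read 14.50, 14.42, 14.48 and 14.56 in H/R+B12, against 13.89, 13.79, 13.62 and 13.79 in control+B12. The groups did not overlap, and Usp7 rose by 0.60 ± 0.13 (limma adjusted p = 4.02e-03) and by 0.72 ± 0.13 with B12 (adjusted p = 9.85e-04). Mdm2, measured beside it, rose by 0.52 ± 0.14 (adjusted p = 0.0178) without B12. Its call was lost without control replicate 3 (0.0513) or H/R replicate 1 (0.0604), and with B12 it was at 0.19 (adjusted p = 0.428).

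Usp42, described in human cells as a p53 deubiquitinase, read 9.79, 10.08, 10.59 and 10.21 in H/R arrays, against 9.45, 9.27, 9.48 and 9.53 in control arrays. It read 10.59, 10.12, 10.06 and 10.36 in H/R+B12, against 9.46, 9.38, 8.82 and 8.98 in control+B12. All arrays after H/R were above those of their controls, by 0.74 ± 0.19 on average (limma adjusted p = 0.0107) without B12 and 1.12 ± 0.19 (adjusted p = 4.41e-04) with B12. Usp47, known from base excision repair and added after its values were seen, rose by 0.46 ± 0.13 (adjusted p = 0.0167) and by 0.69 ± 0.13 with B12 (adjusted p = 9.73e-04). Its call without B12 was lost without control replicate 2 (0.0531) and when only the 2 groups were fitted (0.0542).

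Usp45, whose product acts on the repair nuclease subunit Ercc1, had the largest decrease of the 55 members after H/R without B12. It read 11.39, 11.72, 10.98 and 11.17 in H/R arrays, against 12.18, 12.22, 12.0003 and 12.18 in control arrays. It read 11.49, 11.17, 11.25 and 11.18 in H/R+B12, against 12.07, 11.95, 12.10 and 11.98 in control+B12. Each array after H/R lay below each array of its control. The decrease was -0.83 ± 0.15 (limma adjusted p = 8.29e-04), a fold of 0.561, and -0.75 ± 0.15 with B12 (adjusted p = 1.81e-03).

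Usp1, which takes ubiquitin off Fancd2 and Pcna with Wdr48 as its partner, was at 0.38 ± 0.16 (limma adjusted p = 0.123) without B12, where its groups did not overlap and it passed with an intensity trend and robust variances (0.0381). With B12 it rose by 0.67 ± 0.16 (adjusted p = 6.27e-03), although the 2 groups' arrays overlapped. Usp10, which also acts on p53, was at -0.0005 ± 0.14 and -0.16 ± 0.14. Usp28, a Myc stabiliser and the relative of Usp25, was at 0.58 ± 0.21 (adjusted p = 0.0705) and 0.30 ± 0.21 (adjusted p = 0.386). Usp28 without B12 passed without H/R replicate 3 (0.75, adjusted p = 0.0215), after quantile normalization (0.0326) and with centred arrays (0.0399). Usp11 was dim and did not pass.

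The 3 members that act on HIF, its ligase VHL or the thyroid hormone deiodinase had 0 higher and 1 lower without B12, and 0 in either direction with B12 by limma, where 1 of the 3 had an unadjusted p under 0.05. The shares passing were 17.6% and 18.7% of all probe sets, and 34.3% and 35.3% of those that were not dim. Usp20, a partner of VHL in human cells, read 8.57, 7.93, 8.59 and 8.33 in H/R arrays, against 8.61, 8.84, 8.99 and 9.16 in control arrays. The groups did not overlap, although the highest H/R array and the lowest control array nearly met. With B12 it read 8.42, 8.64, 8.20 and 8.19 in H/R+B12, against 8.73, 8.94, 8.75 and 8.90 in control+B12, again with no overlap. Usp20 fell by 0.55 ± 0.17 (limma adjusted p = 0.034) and was at -0.46 ± 0.17 (adjusted p = 0.0694) with B12. The call was lost without control replicates 2, 3 or 4 (0.0563, 0.083 and 0.105), without H/R replicates 2 or 4 (0.122 and 0.0696), with the replicate block (0.0634) and when only the 2 groups were fitted (0.0884). It was also lost after quantile normalization (0.0713) and in centred arrays (0.0759). With B12 it passed without H/R+B12 replicate 2 (0.0454) and after leaving out the 25% dimmest probe sets (0.0471). Its relative Usp33 was at 0.01 ± 0.17 and -0.17 ± 0.17. Usp19, anchored in the endoplasmic reticulum, was at -0.30 ± 0.16 and -0.17 ± 0.16. Vhl itself rose by 0.65 ± 0.16 (adjusted p = 7.66e-03) without B12 and was at 0.33 (adjusted p = 0.178) with it.

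Of the 5 members that work at membranes, endosomes and mitochondria, 0 passed by limma without B12, where 0 had an unadjusted p under 0.05, and 1 rose with B12. Among all probe sets 17.6% and 18.7% passed, and 34.3% and 35.3% of those that were not dim. Usp30, which opposes Parkin on the outer mitochondrial membrane, was at 0.28 ± 0.24 without B12 and rose by 0.70 ± 0.24 with B12 (limma adjusted p = 0.0484). This call was lost without control+B12 replicates 1 or 3 (0.154 and 0.142) and without H/R+B12 replicates 1, 2 or 3 (0.107, 0.132 and 0.107). It was also lost with the replicate block (0.0513), after quantile normalization (0.0523) and when only the 2 groups were fitted (0.116). Usp8, which works on endosomal receptors such as the EGF receptor, was at -0.10 ± 0.14 and -0.22 ± 0.14. Usp9x, a large X-linked member, was at 0.14 with an interval of -0.12 to 0.41, and at 0.11 (-0.16 to 0.37) with B12.

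Of the 2 members tied to the proteasome and to free ubiquitin chains 0 passed by limma in either comparison, and Usp14 with B12 had an unadjusted p under 0.05. Beside them 17.6% and 18.7% of all probe sets passed, and 34.3% and 35.3% of those that were not dim. Usp14, which trims chains on the proteasome itself, was at 0.39 ± 0.22 (limma adjusted p = 0.269) and 0.55 ± 0.22 (adjusted p = 0.0961). Without H/R replicate 4 the first of these was 0.65 (adjusted p = 0.014). With B12 it passed when only the 2 groups were fitted (0.0424) and with an intensity trend and robust variances (0.0394). Usp5, which takes apart unanchored chains, was at -0.29 ± 0.14 (adjusted p = 0.2) and -0.01 ± 0.14.

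The other risen members were Usp29, Usp43 and Usp6nl. Usp29, an imprinted gene in the mouse, read 11.52, 11.44, 11.35 and 11.20 in H/R arrays, against 10.75, 10.45, 9.80 and 10.51 in control arrays. It read 11.17, 11.35, 11.06 and 11.09 in H/R+B12, against 10.44, 10.10, 10.41 and 10.44 in control+B12. Usp29 rose by 1.00 ± 0.18 (limma adjusted p = 6.89e-04) and by 0.82 ± 0.18 with B12 (adjusted p = 3.09e-03), with no overlap.

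Usp6nl, whose product limits endocytosis through Rab GTPases, read 13.18, 13.00, 13.31 and 12.87 in H/R arrays, against 11.71, 11.80, 11.97 and 11.94 in control arrays. It read 12.91, 12.90, 13.02 and 13.11 in H/R+B12, against 12.08, 11.88, 11.37 and 11.69 in control+B12. It rose by 1.23 ± 0.15 in both comparisons (limma adjusted p = 3.17e-05 and 3.09e-05), 2.35-fold, and its groups did not overlap.

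Usp43 read 6.15, 6.10, 5.24 and 6.18 in H/R arrays, against 4.98, 3.99, 4.32 and 4.14 in control arrays. It read 5.84, 5.14, 5.33 and 5.61 in H/R+B12, against 4.43, 4.45, 3.76 and 4.21 in control+B12. It rose by 1.55 ± 0.25 (limma adjusted p = 3.66e-04) and by 1.27 ± 0.25 with B12 (adjusted p = 1.92e-03). Since its mean was dim in control, control+B12 and H/R+B12, the size of these changes is uncertain. In H/R, replicates 1, 2 and 3 also read below the negative control medians of their own arrays (6.23, 6.21 and 6.03). The cell cycle members Usp37 and Usp50, the 5 Usp17l genes, Usp24, Usp26, Usp32, Usp35 and Usp40 did not pass in either comparison.

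Each of the 17 members called without B12 had H/R arrays entirely on one side of the control arrays. In all, 20 of 55 members did so, 15 higher and 5 lower, against 20.9% of all probe sets. With B12 the groups did not overlap in 19 members, against 21.5% of all probe sets, and 16 of these members were among the 18 called. The shares without overlap were not counted for the probe sets that were not dim, which passed the test more often. At least 2-fold changes were found in 6 of the 17 called members without B12 (Usp36, Usp54, the dim Usp43, Usp22, Usp6nl and Usp12), all higher. With B12 there were 7 of 18, with Usp42 and the lower Usp46 in place of Usp12. The share of all probe sets with such a change is not given here. Whether the family differs from the array in this cannot be read from these counts.

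**Figure D3:**
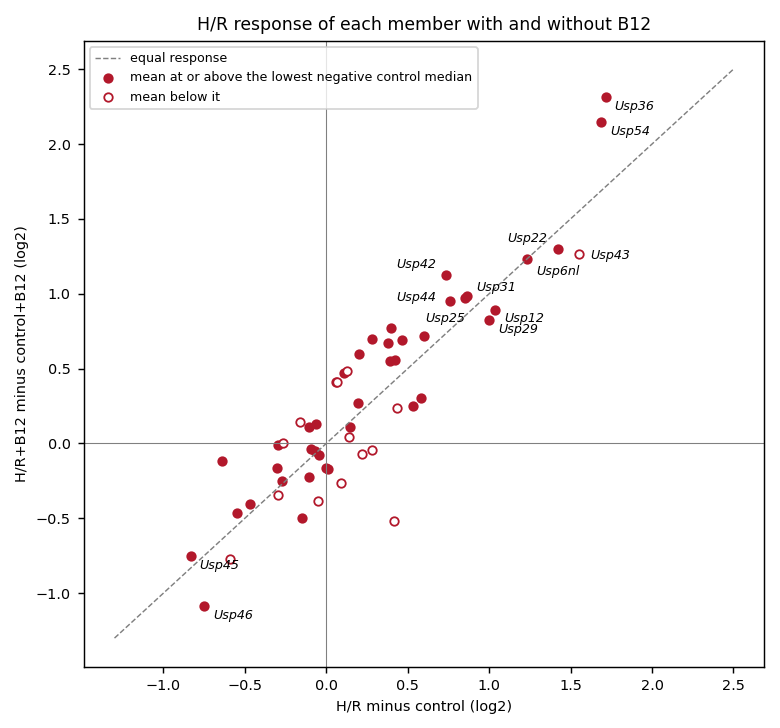
Log2 change of each of the 55 members in H/R minus control (x axis) and in H/R+B12 minus control+B12 (y axis). The dashed line marks equal responses, and open circles are members whose mean over 16 arrays was dim. The points follow the line with r = 0.903. Usp36, Usp54 and Usp42 are among those above it, and no member passed the interaction. With B12, Usp36 differed by 0.14 after H/R and by -0.46 in normal culture, and Usp54 by -0.02 and -0.48.

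Promoter sequence is shown for Usp36, Usp54, Usp12 and Usp31, 4 of the members that rose in both comparisons. Usp6nl, Usp7, Usp25, Usp29 and Usp47 also rose in both and were searched, but their sequences are not shown. The RefSeq table of build GRCm38.p6 held start-site windows for 42 of the 55 members, in 43 windows. Usp1, Usp5, Usp9x, Usp14, Usp17le, Usp18, Usp22, Usp33, Usp39, Usp42, Usp43, Usp44 and Usp53 had none there. The 250 bases before each start were searched on both strands for ACGTG, the core of the hypoxia response element, for TGANTCA (AP-1), TGACGTCA (cyclic AMP response element), GAANNTTC (part of a heat shock element), the interferon-stimulated response element and CCGGAAGT (Ets factors). Each sequence runs 5′ to 3′ on the strand of the gene, with matches in capitals.
Usp36, chr11:118290245-118290494, minus strand: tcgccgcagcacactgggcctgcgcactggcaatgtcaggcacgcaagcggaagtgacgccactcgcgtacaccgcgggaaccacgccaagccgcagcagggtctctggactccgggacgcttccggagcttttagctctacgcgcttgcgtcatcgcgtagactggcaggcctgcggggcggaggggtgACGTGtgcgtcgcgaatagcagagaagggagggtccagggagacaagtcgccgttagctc
Usp54, chr14:20618355-20618604, minus strand: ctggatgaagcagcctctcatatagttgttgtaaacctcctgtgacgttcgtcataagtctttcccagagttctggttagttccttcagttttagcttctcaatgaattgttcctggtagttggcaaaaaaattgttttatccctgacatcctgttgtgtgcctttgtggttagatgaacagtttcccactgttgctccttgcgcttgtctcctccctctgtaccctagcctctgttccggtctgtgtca
Usp12, chr5:146794957-146795206, minus strand: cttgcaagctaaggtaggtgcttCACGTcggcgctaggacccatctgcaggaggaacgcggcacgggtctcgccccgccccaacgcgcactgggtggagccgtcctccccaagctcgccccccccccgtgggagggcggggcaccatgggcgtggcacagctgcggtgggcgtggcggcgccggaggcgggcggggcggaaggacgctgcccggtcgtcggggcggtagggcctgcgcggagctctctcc
Usp31, chr7:121707443-121707692, minus strand: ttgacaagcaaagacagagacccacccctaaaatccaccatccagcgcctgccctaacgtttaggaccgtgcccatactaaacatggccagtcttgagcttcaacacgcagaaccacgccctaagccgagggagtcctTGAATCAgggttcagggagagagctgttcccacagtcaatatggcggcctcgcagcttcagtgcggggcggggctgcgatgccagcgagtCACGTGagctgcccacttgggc

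Usp36 held ACGTG at 60 bases before the start. Usp12 held its reverse complement at 227 bases before the start. In Usp31 the motif occurred on both strands in an overlapping pair at 22 and 21 bases before the start, and TGANTCA stood at 112 bases. Usp54 held none of the 6 motifs in this window. ACGTG was found in 15 of 43 member windows (34.9%), in 16.6% of all 32851 windows in the table and in 17.8% of the 21263 windows of coding genes. Of 10 risen members with a window 5 held it (Usp6nl, Usp7, Usp12, Usp31 and Usp36). It was also held by Usp4, Usp16, Usp24, Usp28, Usp32, Usp37, Usp38, Usp48, Usp50 and Usp51, which passed in neither comparison. A link between the motif and the rise was not tested. TGANTCA was in 3 member windows (6.98%, against 6.75% of all) and CCGGAAGT in 3 (6.98%, against 2.88%). The other motifs were in 0 member windows, and in 1.55% (TGACGTCA), 6.69% (GAANNTTC) and 2.98% (the interferon element) of all. A match is a description of letters and not of binding.

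B12 itself moved no member past the threshold. By limma 0 of 55 members passed in H/R+B12 against H/R (0.0% of all probe sets), 1 had an unadjusted p under 0.05 (4.55% of all probe sets) and the smallest adjusted p was 1.0. In control+B12 against control 0 passed (0.0% of all probe sets), 4 had an unadjusted p under 0.05 (5.76% of all probe sets) and the smallest adjusted p was 0.82. The groups did not overlap in 0 members after H/R and in 1, Usp16, in normal culture, against 2.87% of all probe sets in each comparison. No other tool was run on these comparisons. Among the 41 members that were not dim, the differences with B12 ran from -0.45 to 0.32 after H/R and from -0.62 to 0.18 in normal culture, with a median half-width of the 95% interval of 0.35 in both. The whole interval lay within a 2-fold change in either direction for all 41 after H/R and for 39 in normal culture.

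After H/R the 3 members with the smallest p were Usp5, Usp19 and Usp40. Usp5 read 9.79, 9.69, 9.53 and 9.57 in H/R+B12, against 9.42, 9.16, 9.53 and 9.17 in H/R, a difference of 0.32 (95% interval 0.02 to 0.63). Usp19 read 11.20, 11.37, 10.86 and 11.09 in H/R+B12, against 10.85, 11.05, 10.58 and 10.78 in H/R, a difference of 0.32 (-0.02 to 0.65). Usp40 read 8.40, 8.05, 7.13 and 7.65 in H/R+B12, against 8.40, 8.14, 7.74 and 8.74 in H/R, a difference of -0.45 (-0.97 to 0.07). The groups overlapped in all 3 genes.

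In normal culture the smallest p-values belonged to Usp13, Usp54 and Usp27x. Usp13, which was dim, read 3.44, 2.82, 3.39 and 2.55 in control+B12, against 2.60, 2.33, 2.57 and 2.42 in control, a difference of 0.57 (95% interval 0.15 to 0.98). Usp27x read 6.58, 6.54, 5.88 and 6.47 in control+B12, against 6.73, 7.42, 7.44 and 6.34 in control, a difference of -0.62 (-1.18 to -0.06). Usp54, with the values given above, differed by -0.48 (-0.89 to -0.07). The groups overlapped in each gene.

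**Figure D4:**
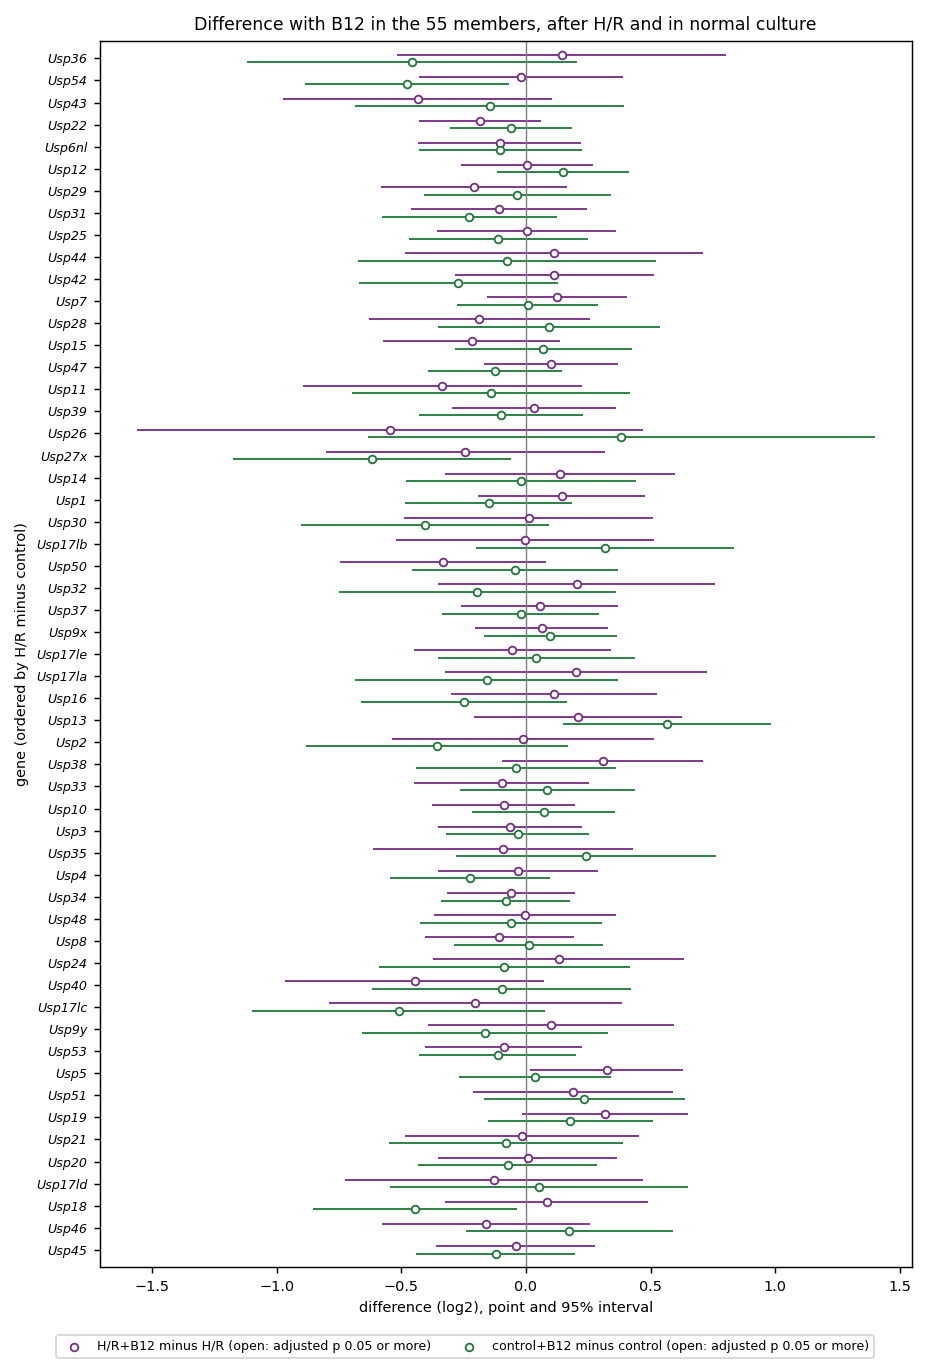
Log2 difference with B12 (x axis, point and 95% interval from limma, n = 4 arrays per group) in the 55 members (y axis), for H/R+B12 minus H/R in purple and control+B12 minus control in green. No point is filled because no member passed the threshold, and most intervals include 0.

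The interaction, which asks whether the H/R response differed with B12, was passed by 0 of 55 members (0.0% of all probe sets), and 0 members had an unadjusted p under 0.05 in limma, against 4.82% of all probe sets. The smallest p-values were those of Usp18 (0.53, 95% interval -0.05 to 1.10), Usp54 (0.46, -0.12 to 1.04) and Usp42 (0.39, -0.18 to 0.95). Among members that were not dim the median half-width of the interval was 0.50. Differences in response below that size were mostly not detectable with 4 arrays per group. Larger ones could be missed too, since calls were adjusted over all probe sets. Usp36 differed by 0.60 (-0.34 to 1.54) and did not pass.

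Other genes of the ubiquitin system were read beside the family. Of 37 measured deubiquitinases of other families and Usp-like genes, 8 rose and 2 fell after H/R (27.0%, median 0.28). With B12, 8 rose and 2 fell (27.0%, median 0.12). Over all probe sets 17.6% and 18.7% passed, and 34.3% and 35.3% of those that were not dim. The 10 genes of this list called in each comparison had 7 in common. Cyld, Otub1 and Zranb1 were called without B12 and Cops5, Mysm1 and Uchl4 with it, and these were named after their values were seen. Uspl1, a relative of the USPs that acts on SUMO, rose by 1.02 ± 0.12 (limma adjusted p = 2.56e-05) and the OTU enzyme Otud4 by 1.04 ± 0.17 (adjusted p = 3.39e-04). Uchl1, a hydrolase best known from neurons, fell by 1.54 ± 0.22 (adjusted p = 1.18e-04). Tnfaip3, which ends NF-kB signalling, fell by 1.61 ± 0.26 (adjusted p = 3.25e-04). These 4 genes passed with B12 in the same directions.

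Of 22 partners and substrates of USPs, 4 rose and 1 fell after H/R, and 2 rose and 0 fell with B12. Gmps, a partner of Usp7, rose by 0.51 ± 0.13 (limma adjusted p = 0.0109), a call lost when only the 2 groups were fitted (0.0597). Fanci, which pairs with the Usp1 substrate Fancd2, fell by 0.84 ± 0.22 (adjusted p = 0.0132) and was at -0.23 (adjusted p = 0.551) with B12. Of 3 measured ubiquitin and activating enzyme genes 0 passed without B12 by limma and 0 had an unadjusted p under 0.05. Uba3, which activates the ubiquitin-like protein Nedd8, rose by 0.47 ± 0.15 (adjusted p = 0.0421) with B12. Over the 3 lists 15 of 62 genes passed without B12 (24.2%) and 13 with B12 (21.0%), against 17.6% and 18.7% of all probe sets and 34.3% and 35.3% of those that were not dim. The count with B12 was 20 with an intensity trend and 21 with centring.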

How the data were processed

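Per the submitters' processing notes, the deposited log2 values were made by the authors with RMA in Affymetrix Expression Console and Transcriptome Analysis Console, and the versions were not given in the sources used here. RMA corrects background, normalizes arrays together and summarises probes, so levels are relative. Of 28846 features, 6640 controls were left out, and all 22206 others were tested. GEO's platform annotation gave 1 symbol to 19572 of these and none to 2634. A linear model with 4 group means was fitted to the 16 arrays with limma 3.58.1 (R 4.3.3), with empirical Bayes variances, and p-values were adjusted by Benjamini and Hochberg over all probe sets. The fit was first tested on simulated data. Tables and plots used Python 3.11.15, pandas 2.3.3 and matplotlib 3.10.9.

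The members and lists were chosen with earlier results of these data known. Named with values were the called members, up to 12 in each direction by size without B12, the 3 with the smallest p in each B12 comparison and in the interaction, a list of members with known roles, and up to 4 called genes of each other list. The main fit did not pair arrays by replicate number. Over the tested probe sets, deviations of arrays with the same number correlated at -0.07 to 0.08. The negative control medians fell from replicate 1 to replicate 3 in all 4 groups. They went from 6.10 to 5.85 in control, 6.08 to 5.72 in control+B12, 6.23 to 6.03 in H/R and 6.17 to 5.87 in H/R+B12. What arrays with the same number share was not tested. The number of arrays limits the precision. Promoters came from RefSeq (GRCm38.p6). Alternatives were a replicate block, fits of only the 2 groups, an intensity trend fitted with robust variances, and array weights. Others left out the 25% dimmest probe sets, used quantile normalization, median centring or another threshold, or left out each array in turn. A count over members that were not dim was added after seeing the data.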

Additional observations from a re-analysis of the deposited data

Results flagged for a closer look

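Single arrays stood apart from the other 3 of their group in 10 of 140 groups of 4 examined over 35 members, and chance gives about 1 in 20. The gap to the nearest array exceeded Dixon's 95% limit in each. In H/R, replicate 3 of Usp43 read 5.24 (others 6.10 to 6.18), replicate 3 of Usp47 read 12.45 (12.70 to 12.73) and replicate 3 of Usp7 read 14.63 (14.25 to 14.31). Also in H/R, replicate 2 of Usp54 read 10.86 (11.08 to 11.11) and replicate 4 of Usp30 read 10.28 (10.20 to 10.21). In control+B12, replicate 3 of Usp15 read 11.17 (11.55 to 11.56) and replicate 3 of Usp27x read 5.88 (6.47 to 6.58). In the same group replicate 2 of Usp29 read 10.0951 (10.41 to 10.44) and replicate 1 of Usp33 read 11.38 (11.13 to 11.15). In control, replicate 4 of Usp40 read 8.66 (8.31 to 8.34).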

How the results depend on the processing

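Without B12, 13 of the 17 called members passed under every alternative except the 2-fold threshold, and with B12 15 of 18 did, and the exceptions (Usp15, Usp18, Usp20, Usp47, and with B12 Usp30, Usp39, Usp44) are given above. An unadjusted p under 0.05 with at least a 2-fold change called 6 members without B12 and 7 with B12, and 5 and 4 genes of the other lists. No share of all probe sets at this threshold is given here to set beside these counts. Those lists had 13 calls with B12, but 20 with an intensity trend and 21 with centred arrays. Centring called 15 members higher and 2 lower without B12, against 13 and 4. With the replicate number as a block 15 members passed without B12 and 17 with it, and 0 in the B12 comparisons and the interaction. Leaving out each array gave 14 to 18 members without B12, 16 to 18 with it, 12 to 14 and 10 to 14 genes of the other lists, and 0 for the B12 comparisons and the interaction. For members not called in the comparison named the sign turned, and the cause was not tested. Usp10 without B12 turned with array weights (0.0144) and centring (0.0719), and ran from -0.0703 to 0.0685 over the arrays left out. Centring also turned Usp4 without B12 (0.0096) and Usp5 with B12 (0.0773). Over the arrays left out, Usp4 ran from -0.1228 to 0.0228, Usp2 from -0.0864 to 0.2424, Usp33 from -0.1519 to 0.1244 and Usp40 from -0.3109 to 0.0198 without B12. With B12, Usp5 ran from -0.0581 to 0.0534 and Usp18, called without B12, from -0.2277 to 0.0598. No member had a second probe set, so that alternative was not run. Signals below the negative controls limit what 14 members can show.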
